A study of Mus musculus with 6 samples.

Results

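NRF2, encoded by Nfe2l2, is a transcription factor that raises the cell's capacity to detoxify electrophiles and to keep glutathione and thioredoxin reduced. KEAP1 binds NRF2 in the cytoplasm and presents it to a CUL3 ubiquitin ligase, so that the protein is degraded until oxidants or electrophiles modify KEAP1. NRF2 then pairs with small MAF proteins on the antioxidant response element and activates its target genes, a program known in liver for drug metabolism and for its activation in liver tumors. The 10 genes described here were chosen by symbol. Nfe2l2 and Keap1 are the regulators, and the 8 targets are Nqo1, Gclc, Gclm, Txnrd1, Srxn1, Hmox1, Gsr and G6pdx. All 10 were found among the 30236 genes of the table, and all 10 were among the 22677 genes tested, those whose mean lay above the lowest 25%.

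Liver tumors were taken for RNA sequencing from WT mice (n = 3) and from Top1mt -/- (Top1mt-KO) mice (n = 3), which lack the mitochondrial topoisomerase TOP1MT in the whole body. All were male C57BL/6 mice, which the paper describes as littermates from heterozygous breeding. It also reports inducing tumors in several litters over time, and the litter of each library is not given. Every animal, WT included, had received the mutagen diethylnitrosamine on day 14 after birth and the hepatotoxin carbon tetrachloride for 14 weeks from the age of 8 weeks, and tumors were taken at 22 weeks. By the paper's account the tissue was taken within days of the last carbon tetrachloride injection, and the sequenced tumors of both genotypes had the same size. No untreated liver or adjacent tissue is part of the comparison, so the levels describe tumors against tumors. The study asked how loss of TOP1MT changes tumors.

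The values are the authors' log2 expression values. Their transform is not given in the sources used here, and if it draws weakly expressed genes toward their mean, fold changes of such genes are understated. The number of reads behind each value is unknown. The 6 marker genes of hepatocytes were all strongly expressed, the lowest being Hnf4a at a mean log2 value of 13.4. Top1mt was 7.71, 5.99 and 8.01 in libraries with the WT label (replicates 1, 2 and 3) and 5.58, 6.41 and 6.32 in those labelled Top1mt-KO. The library labelled WT replicate 2 therefore lay below 2 libraries labelled KO, against its label, and every direction below rests on the labels. The library labelled KO replicate 1 stood apart in Gm42418, at 22.0 against 11.7 to 15.8 in the others. Values without single libraries are therefore given beside differences and counts that these turn. Not every such turn is given there, and the ranges of the single genes come at the end. In bulk tumors, fewer cells of a type and less RNA per cell cannot be told apart.

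Short antioxidant response element cores lie close to the start sites of some of these genes. The core was searched on both strands as TGACNNNGC and as TGAGNNNGC, which cannot both match at one position of one strand, in windows from 250 bases before to 50 after each RefSeq start on GRCm38.p6. Windows were found for 7 of the 10 genes, 9 windows in all, and Gclc, Gsr and Hmox1 had none. TGACNNNGC was present in 12.4% of all 32851 windows and TGAGNNNGC in 17.6%, with either in 27.8%. Counted per gene, at least 1 window held TGACNNNGC in 14.0% of 27025 genes and TGAGNNNGC in 19.8%. Among these genes TGACNNNGC occurred in at least 1 window of 5 of 7 genes (Nfe2l2, Srxn1, Gclm, Txnrd1 and G6pdx) and TGAGNNNGC in that of Srxn1. No match lay in the windows of Nqo1 or Keap1, which says only that these letters are not there. A match is a description of sequence and not a binding site.

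Srxn1 is shown first because its level followed that of Nqo1 most closely. The stretch is chr2:152105359-152105494 on the plus strand, from position -165 to -30 relative to the start, outside exons. The TGACNNNGC match of Srxn1 lies beyond it, at position 28 in an annotated exon and on the opposite strand, and is not shown. The 2 matches in the stretch, both TGAGNNNGC, are in capitals (the first reads on the opposite strand).
Srxn1: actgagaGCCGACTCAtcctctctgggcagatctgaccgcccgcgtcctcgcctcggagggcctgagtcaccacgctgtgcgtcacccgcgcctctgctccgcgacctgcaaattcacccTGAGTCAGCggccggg

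The matches of the other genes that hold one, Gclm, Txnrd1, G6pdx and Nfe2l2, follow for comparison, with 10 bases on each side and the match in capitals, each written in the direction of its gene. They lie at chr3:122245413-122245441 (plus strand), chr10:82859104-82859132 (plus strand), chrX:74428919-74428947 (minus strand) and chr2:75704885-75704913 (minus strand). The capitals of the first 3 read on the opposite strand. The G6pdx match falls in an annotated exon of that gene, and the other 3 do not.
Gclm: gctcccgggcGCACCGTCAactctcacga
Txnrd1: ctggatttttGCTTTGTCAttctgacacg
G6pdx: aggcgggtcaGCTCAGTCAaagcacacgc
Nfe2l2: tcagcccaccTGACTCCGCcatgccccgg

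Both regulators were expressed at even levels in all 6 tumors. Nfe2l2 (chromosome 2, 75675513 to 75704641, GRCm38) was 10.93, 10.81 and 10.75 in libraries with the WT label (replicates 1, 2 and 3) and 10.60, 10.83 and 10.46 in those labelled KO. KO replicates 1 and 3 lay below every WT library, and KO replicate 2 lay among them. The mean was 10.83 ± 0.096 (SD, n = 3) in WT against 10.63 ± 0.19 (SD, n = 3) in KO. The log2 difference, KO minus WT, was -0.20 with a 95% interval of -0.53 to 0.13 (limma's adjusted p = 0.999).

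Keap1 (chromosome 9, 21229730 to 21239361), the adaptor that marks NRF2 for degradation, was 9.56, 9.49 and 9.52 in the libraries labelled WT and 9.55, 9.80 and 9.50 in those labelled KO. The only library that stood off was KO replicate 2, the highest of the 6. The log2 difference was 0.090 (95% interval -0.22 to 0.40, limma's adjusted p = 0.999). Over all 6 tumors the range was 0.47 for Nfe2l2 and 0.31 for Keap1 on the log2 scale. These are transcript levels, whereas NRF2 is controlled largely by the stability of its protein. An annotated gene, Gm16754, overlaps exons of Keap1 on the opposite strand, and whether counting used strand is not given in the sources used here.

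**Figure D1:**
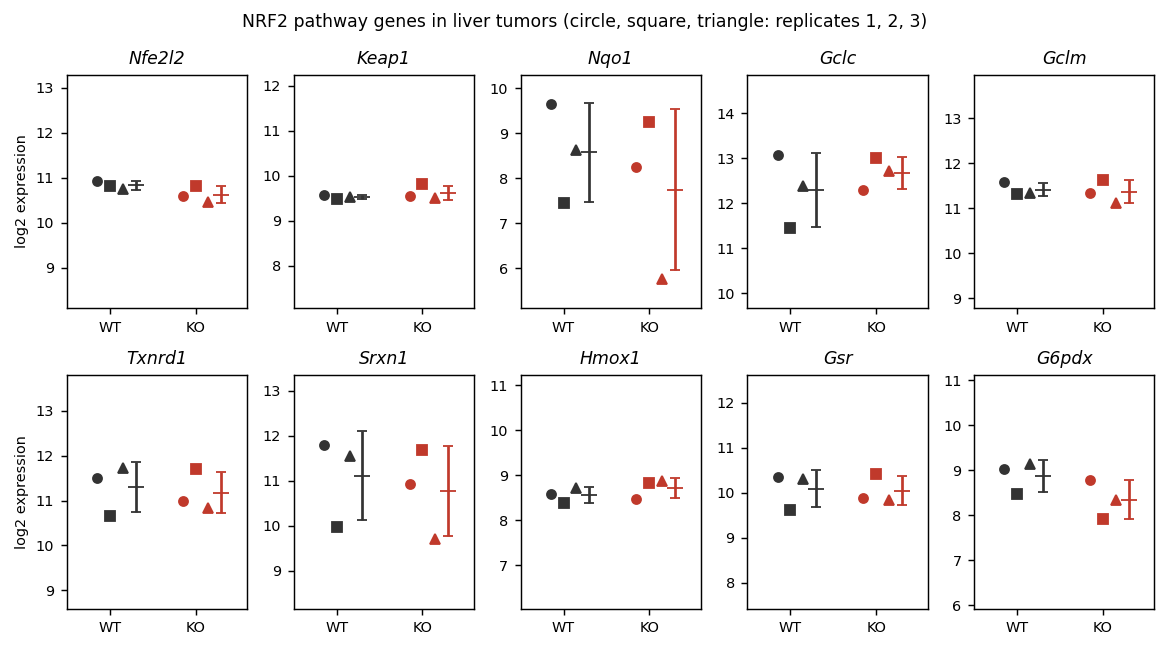
Log2 expression of the 10 genes in each liver tumor, by genotype label, in panels of equal height on the log2 scale. Points are libraries (circle, square and triangle for replicates 1, 2 and 3) and bars are the mean ± SD of 3 libraries. Nqo1 ranges over 3.89 log2 units and Srxn1 over 2.10, while Nfe2l2 and Keap1 stay within 0.47 and 0.31.

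Nqo1 was the most variable target, but the variation did not follow the genotype label. Nqo1 (chromosome 8, 107388225 to 107403206), the quinone reductase often used as a readout of NRF2, was 9.65, 7.44 and 8.63 in the libraries labelled WT and 8.24, 9.24 and 5.76 in those labelled KO. WT replicate 1 and KO replicate 2 were the highest and KO replicate 3 and WT replicate 2 the lowest, so that each genotype held a high and a low tumor. The highest tumor had 14.8 times the lowest, a log2 range of 3.89. The mean was 8.57 ± 1.10 (SD, n = 3) in WT against 7.75 ± 1.79 (SD, n = 3) in KO. The log2 difference was -0.82 with a 95% interval of -2.85 to 1.20 (limma's adjusted p = 0.999), and it was 0.17 without KO replicate 3. Pooled within genotypes, its SD of 1.49 was above that of 99.2% of the genes tested, whose median was 0.385.

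Srxn1 (chromosome 2, 152105516 to 152111376), which encodes sulfiredoxin, the enzyme that restores overoxidized peroxiredoxins, placed the 6 tumors in the same order as Nqo1. It was 11.80, 9.98 and 11.54 in the libraries labelled WT and 10.93, 11.69 and 9.70 in those labelled KO. Again WT replicate 2 and KO replicate 3 were low and the genotypes overlapped. The log2 difference was -0.34 (95% interval -1.70 to 1.03, limma's adjusted p = 0.999). When KO replicate 3 was left out it turned to 0.20. Its pooled SD of 0.996 was above that of 94.7% of the genes tested.

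The glutathione genes differed in how much they varied. Gclc (chromosome 9, 77754535 to 77794485), the catalytic subunit of the rate-limiting enzyme of glutathione synthesis, was 13.09, 11.45 and 12.38 in the libraries labelled WT and 12.30, 13.01 and 12.72 in those labelled KO. WT replicate 2 was the lowest, while KO replicate 3, low in Nqo1 and Srxn1, was not low in Gclc. Between genotypes the log2 difference was 0.37 (95% interval -0.54 to 1.28, limma's adjusted p = 0.999), and -0.057 without WT replicate 2.

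Gclm (chromosome 3, 122245557 to 122270732), the modifier subunit of that enzyme, was 11.58, 11.31 and 11.33 in the libraries labelled WT and 11.62 in KO replicate 2, with 11.34 and 11.11 in KO replicates 1 and 3. Its range was only 0.51, yet its lowest tumors were again KO replicate 3 and WT replicate 2. KO minus WT, the log2 difference was -0.048 (95% interval -0.44 to 0.35, limma's adjusted p = 0.999). It turned to 0.038 without WT replicate 1 and to 0.075 without KO replicate 3. Exons of Gm6061 on the same strand and of Gm17494 on the opposite strand overlap those of Gclm, so reads could be shared. Gsr (chromosome 8, 33652523 to 33698163), glutathione reductase, was 10.34, 9.62 and 10.31 in the libraries labelled WT and 9.88, 10.42 and 9.84 in those labelled KO. Its lowest tumors were WT replicate 2 and KO replicate 3. Its log2 difference was -0.045 (95% interval -0.61 to 0.52, limma's adjusted p = 0.999). That difference was positive without WT replicate 1 (0.080), WT replicate 3 (0.066), KO replicate 1 (0.038) or KO replicate 3 (0.059).

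Txnrd1 (chromosome 10, 82833951 to 82897712), the cytosolic thioredoxin reductase, was 11.50, 10.66 and 11.72 in the libraries labelled WT and 10.99, 11.70 and 10.83 in those labelled KO. WT replicate 2 and KO replicate 3 were once more the lowest, and the log2 difference was -0.12 (95% interval -0.86 to 0.62, limma's adjusted p = 0.999). Without KO replicate 3 it was 0.050.

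Hmox1 and G6pdx placed the 6 tumors in other orders than Nqo1 did. Hmox1 (chromosome 8, 75093621 to 75100589), the heme-degrading oxygenase, which is also repressed by BACH1 and is strongly expressed in macrophages that recycle red cells, was 8.58, 8.38 and 8.72 in the libraries labelled WT and 8.47, 8.82 and 8.88 in those labelled KO. It was highest in KO replicate 3, the tumor with the least Nqo1. Hmox1 had a log2 difference of 0.16 (95% interval -0.23 to 0.55, limma's adjusted p = 0.999). The summed level of 10 markers of Kupffer cells and macrophages, as a log2 value, ran from 12.8 to 13.9 in WT and from 12.7 to 13.3 in KO. Of these markers 6 were higher in KO and 0 separated the genotypes, against 8.28% of all genes tested. The lowest of the markers, Timd4, had a mean log2 value of 5.89. Over the 6 libraries the summed level of the markers had an r of 0.68 with Hmox1, and their part in the Hmox1 values was not tested.

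G6pdx (chromosome X, 74409483 to 74429194), which makes NADPH in the first step of the pentose phosphate pathway, was 9.03, 8.47 and 9.13 in the libraries labelled WT and 8.78, 7.91 and 8.33 in those labelled KO. KO replicates 2 and 3 lay below every WT library, and KO replicate 1 lay between WT replicates 2 and 1. The mean was 8.87 ± 0.35 (SD, n = 3) in WT against 8.34 ± 0.43 (SD, n = 3) in KO. This gave a log2 difference of -0.53 (95% interval -1.14 to 0.072). Its unadjusted p of 0.0767 was the smallest among the 10 genes, with limma's adjusted p = 0.999. When either WT replicate 2 or KO replicate 1 was left out, the genotypes did not overlap. The unadjusted p by limma was then under 0.05, with limma's adjusted p no lower than 0.691. Of the 22677 genes tested, 1044 had an unadjusted p under 0.05 without WT replicate 2 and 1356 without KO replicate 1, against 985 with all libraries. Fewer libraries separate genotypes more readily, and the share of all genes without overlap was not computed for these fits. Over the 6 fits that left out a library the log2 difference of G6pdx ran from -0.75 to -0.32. Exons of Ikbkg overlap those of G6pdx on the opposite strand.

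Set side by side, 0 of the 10 genes had an adjusted p under 0.05 by limma, against 0% of all genes tested, and 0 had an unadjusted p under 0.05, against 4.34%. The genotypes did not overlap in 0 of 10, against 8.28% of all genes tested. Of the 10 genes 7 were lower and 3 higher in KO, where 52.3% of all genes tested were lower, and the median log2 difference was -0.085 against -0.015 over all genes tested. Leaving out KO replicate 3 turned that median to 0.080, and leaving out WT replicate 1 turned it to 0.024. The intervals show what these 6 tumors can bound. For Keap1 they leave folds between 0.859 and 1.32, and for Gclm between 0.735 and 1.27. For Nqo1 they leave folds between 0.139 and 2.30, so that only changes beyond those bounds lie outside the interval.

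**Figure D2:**
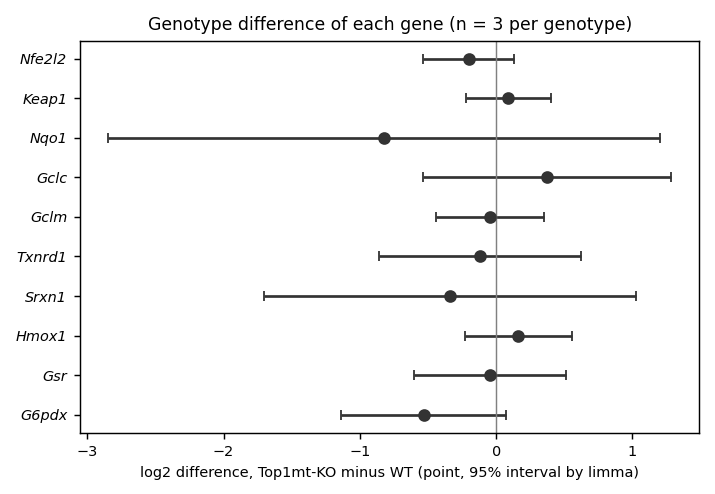
Log2 difference between genotypes (Top1mt-KO minus WT, x axis) for the 10 genes, with the 95% interval by limma (n = 3 per genotype). Every interval includes 0, and those of Nqo1 and Srxn1 are the widest.

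Per kilobase of annotated exon, the order of the mean log2 levels over all 6 tumors began with Gclc at 10.6. Srxn1 followed at 9.44, Nfe2l2 at 8.81, Gclm at 8.73, Gsr at 8.61 and Txnrd1 at 8.41. Hmox1 at 7.83, Nqo1 at 7.53, Keap1 at 7.34 and G6pdx at 6.99 were the lower genes. Neighbours in this order differed by less than the larger of their SDs over the 6 tumors, except Gclc from Srxn1 and Txnrd1 from Hmox1. The length used joins the exons of all annotated transcripts of a gene. Because the transform of the values is unknown, the order is only approximate.

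Several targets varied together from tumor to tumor, across both genotype labels. Nqo1, Srxn1, Gclm, Txnrd1 and Gsr formed 10 pairs with Pearson r from 0.67 to 0.98 over the 6 libraries. This group of 5 genes was picked after the values were seen, and 2 tumors, WT replicate 2 and KO replicate 3, were the lowest in each of the 5. The relation of Nqo1 with each of the other 9 genes was then tested by exact two-sided permutation over all 720 pairings of the 6 tumors, adjusted over the 9 relations. For Srxn1, r was 0.945 (exact permutation p = 0.00139, the smallest the 720 pairings can give, adjusted 0.0125) and Spearman's rho was 1 (exact permutation p = 0.00278, adjusted 0.025). For Gclm, r was 0.917 (exact permutation p = 0.0111, adjusted 0.05) and rho was 0.886 (exact permutation p = 0.0333, adjusted 0.10). With Gsr r was 0.757 (exact permutation p = 0.0681, adjusted 0.13) and rho 0.886 (exact permutation p = 0.0333, adjusted 0.10). With Txnrd1 r was 0.763 (exact permutation p = 0.0722, adjusted 0.13) and rho 0.714 (exact permutation p = 0.136, adjusted 0.204). Among these 9 relations only that with Srxn1 had adjusted values under 0.05. The tests reused the 6 libraries in which the group was picked. Their adjustment leaves out the other pairs among the 10 genes, of which Txnrd1 with Gsr had an r of 0.978. The p-values therefore describe these 6 tumors and are not independent support for the group.

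Leaving out the 2 tumors with Nqo1 farthest from its median, WT replicate 1 and KO replicate 3, r stayed at 0.965 for Srxn1, 0.784 for Gclm, 0.960 for Gsr and 0.914 for Txnrd1. With the genotype means removed it was 0.949, 0.930, 0.777 and 0.765. Nfe2l2 itself had an r of 0.822 with Nqo1 (exact permutation p = 0.0417, adjusted 0.125) and a rho of 0.829 (exact permutation p = 0.0583, adjusted 0.105), but r was 0.131 without those 2 tumors, so that relation rests on them. Keap1 had an r of 0.547 (exact permutation p = 0.236, adjusted 0.354) and a rho of 0.829 (exact permutation p = 0.0583, adjusted 0.105). For Gclc the r was 0.371 (exact permutation p = 0.468, adjusted 0.602) with a rho of 0.657 (exact permutation p = 0.175, adjusted 0.225). G6pdx had an r of 0.276 (exact permutation p = 0.592, adjusted 0.666) and a rho of 0.314 (exact permutation p = 0.564, adjusted 0.634). Hmox1 had -0.177 (exact permutation p = 0.761, adjusted 0.761) and -0.029 (exact permutation p = 1, adjusted 1). Without the 2 tumors, r was 0.812 for Keap1, 0.987 for Gclc, 0.95 for Hmox1 and -0.312 for G6pdx, so the low r of Gclc and Hmox1 over all 6 tumors rests on those 2.

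**Figure D3:**
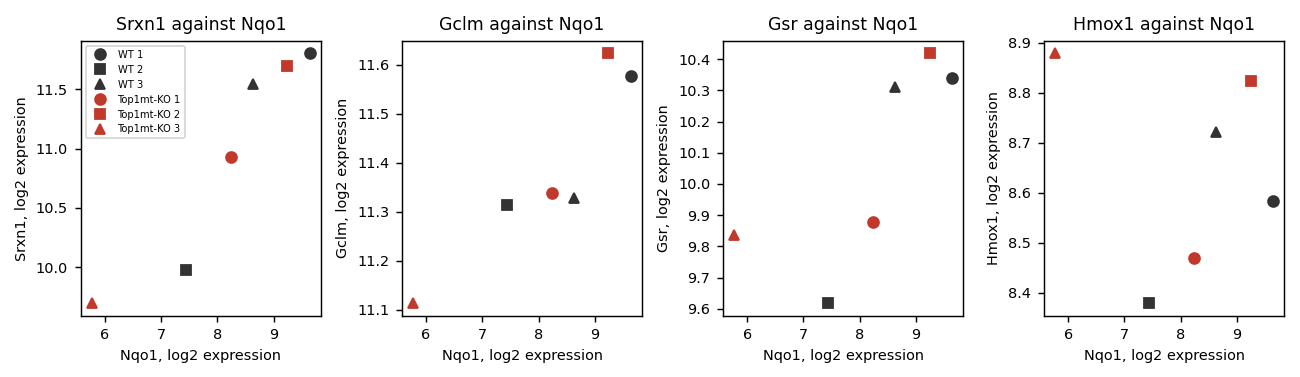
Srxn1, Gclm, Gsr and Hmox1 against Nqo1 (log2 expression on both axes), with black points for libraries labelled WT and red for Top1mt-KO, and symbols for replicates. Srxn1 places the 6 tumors in the same order as Nqo1, with both genotypes at each end, while Hmox1 is highest in the tumor with the least Nqo1.

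Part of the wider NRF2 battery shared this pattern. The 8 targets were summarised in each library as the mean of their centred log2 values. This mean was 0.50, -0.53 and 0.28 in libraries with the WT label (replicates 1, 2 and 3) and -0.075, 0.36 and -0.54 in those labelled KO. Each genotype thus held 1 of the lowest 2 libraries. Of 31 genes of phase II metabolism, efflux and other known NRF2 responses, 17 (54.8%) had a Pearson r above 0.8 with the mean of all 8 targets over the 6 libraries, against 2.54% of the 22663 genes compared. The median r of the 31 genes was 0.87. Over the 6 ways of leaving out a library the count ran from 16 to 19, against 3.88% to 6.84% of the genes compared, and with the genotype means removed it was 17, against 4.50%. Several of the 17 are close paralogs whose reads may be split or shared, above all the Gsta, Gstm and Ugt1a6 genes. These counts describe 6 libraries and are given without a test.

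The examples that follow were picked after their values were seen. Gstm3, a glutathione transferase, was 12.80, 9.23 and 11.40 in the libraries labelled WT and 10.86, 13.27 and 9.25 in those labelled KO. Cbr3, a carbonyl reductase, was 9.28, 5.79 and 7.71 in WT against 7.49, 9.31 and 5.27 in KO. Both were high in WT replicate 1 and KO replicate 2 and low in WT replicate 2 and KO replicate 3, with log2 differences between genotypes of -0.020 and -0.24. Gsta1 went from 6.04 in KO replicate 3 to 10.40 in WT replicate 1. Ugt1a6b, a glucuronosyltransferase, varied on a smaller scale, from 8.60 in WT replicate 2 and 8.62 in KO replicate 3 to 9.94 in WT replicate 1. Genes of the list that went otherwise include Osgin1, with an r of -0.56, Akr1b8, with -0.76, and Akr7a5, with 0.022.

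**Figure D4:**
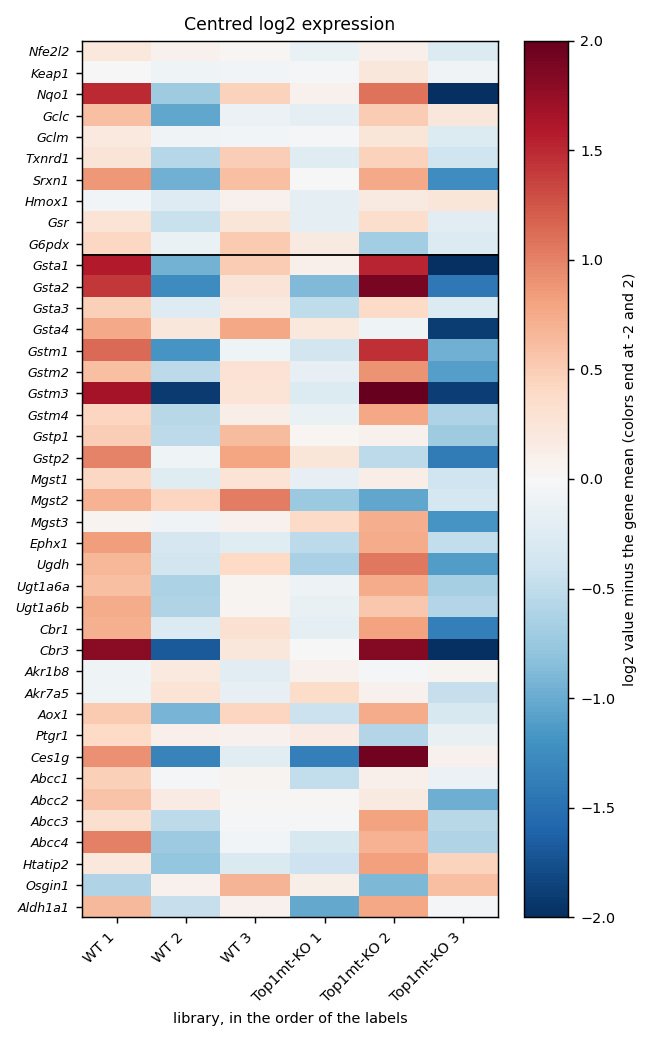
Log2 expression of the 10 NRF2 pathway genes (above the line) and 31 further genes of the NRF2 battery (below) in each liver tumor, as the value minus the gene's mean, with colors ending at -2 and 2. WT replicate 1 and KO replicate 2 are mostly red and WT replicate 2 and KO replicate 3 mostly blue, so the pattern cuts across the genotype labels.

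By genotype, 25 of the 31 battery genes had a lower and 6 a higher mean in KO, at a median log2 difference of -0.19, where 52.3% of all genes tested were lower. This split depended on single tumors. Without KO replicate 3, 12 were lower and the median was 0.11, and without WT replicate 1, 16 were lower and the median was -0.0082. None had an adjusted p under 0.05 by limma (0 of 31) and 3 had an unadjusted p under 0.05, Mgst2, Gstp2 and Gsta4, where the share over all genes tested was 4.34%. The genotypes did not overlap in 2 of the 31, against 8.28% of all genes tested. Mgst2, a microsomal glutathione transferase, was 3.81, 3.54 and 4.14 in WT against 2.37, 2.08 and 2.76 in KO, a weakly expressed gene whose genotypes did not overlap (log2 difference -1.42, standard error 0.44, limma's adjusted p = 0.999). Gsta4, which conjugates lipid peroxidation aldehydes, had a log2 difference of -1.18 (standard error 0.50, limma's adjusted p = 0.999) with no overlap, and Gstp2 one of -1.13. The largest positive differences were 0.57 for Htatip2 and 0.43 for Ces1g, both with overlapping genotypes.

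Among 17 partners, competitors and degradation factors of NRF2 that were tested, 10 had a higher and 7 a lower mean in KO (median log2 difference 0.041). None was without overlap (0 of 17, against 8.28% of all genes tested). Over the fits that left out a library, that median ran from -0.084 (WT replicate 2 left out) to 0.089 (KO replicate 2 left out), with 6 to 9 lower. Bach1 and Bach2, repressors that compete for the same DNA element, had unadjusted p values by limma of 0.0474 and 0.0235, with differences in opposite directions. They were the 2 of 17 under 0.05, against 4.34% of all genes tested. Bach1 was 11.61, 11.98 and 11.61 in WT against 11.75, 10.77 and 10.30 in KO (log2 difference -0.79). Bach2, better known from B cells, was 7.64, 8.37 and 7.88 in WT against 9.07, 8.19 and 9.61 in KO (log2 difference 0.99, the highest of the list). Maff, a small MAF partner, had the lowest, -0.80, from 9.11 ± 0.57 (SD, n = 3) in WT to 8.31 ± 1.02 (SD, n = 3) in KO. The other small MAF genes had an r with the mean of the targets of 0.88 for Mafg and 0.85 for Mafk, and Fbxw11, a subunit of a ligase that degrades NRF2, had -0.89.

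In the list of glutathione supply and use, 5 of 13 genes had a higher and 8 a lower mean in KO (median log2 difference -0.093). Leaving out WT replicate 1 left 4 lower and a median of 0.073, and leaving out KO replicate 2 left 9 lower and a median of -0.29. Ggct, a cyclotransferase of glutathione breakdown, was 7.73, 7.38 and 7.25 in WT against 8.05, 7.76 and 8.64 in KO and did not overlap (log2 difference 0.69, unadjusted p = 0.0261 by limma). Glrx, a glutaredoxin, was 7.59, 7.74 and 7.77 in WT against 7.19, 7.38 and 6.80 in KO, also without overlap (log2 difference -0.58, unadjusted p = 0.0209 by limma). Neither passed when adjusted over all genes tested (limma's adjusted p = 0.999 for both). These were the 2 of 13 genes without overlap, against 8.28% of all genes tested. They were also the 2 with an unadjusted p under 0.05 by limma, against 4.34%. Chac1, another glutathione-degrading enzyme, had the highest log2 difference of the list, 0.79, and Ggt1, near the bottom of the scale, the lowest, -0.78, and both overlapped. Gpx2 followed at -0.58, close to Glrx. Slc7a11, the cystine transporter that feeds glutathione synthesis and is induced by both NRF2 and ATF4, was 8.33, 6.52 and 7.89 in WT against 7.81, 9.82 and 5.12 in KO. It was lowest in the same tumors as Nqo1. Its partner chain Slc3a2 went the other way in KO replicate 3, at 10.63 against 8.42 to 9.63 in the other 5 tumors.

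The other lists held no gene with an unadjusted p under 0.05. In the thioredoxin and peroxiredoxin list 8 of 13 genes were higher in KO (median log2 difference 0.038), with Sesn2 and Txnrd3 highest at 0.36 and 0.31 and Prdx6 and Prdx3 lowest at -0.25 and -0.19. In the NADPH list 5 of 9 were higher (median 0.041), with Me1 and H6pd highest at 0.24 and 0.23 and Idh1 and Pgd lowest at -0.14 and -0.11. Pgd, which makes NADPH later in the same pathway as G6pdx, had an r of 0.95 with the targets, unlike G6pdx. Among heme and iron genes 4 of 9 were higher (median -0.030), with Slc40a1 and Hmox2 highest at 0.42 and 0.25 and Alas1 and Slc48a1 lowest at -0.93 and -0.29. The AHR list, which shares Nqo1 as a known target, had 4 of 8 higher (median 0.021), with Ahr and Arnt highest at 0.26 and 0.23 and Cyp1b1 and Cyp1a1 lowest at -1.003 and -0.59. These splits turned with single libraries. Over the 6 ways of leaving one out, the median ran from -0.026 to 0.17 for the thioredoxin list, lowest without KO replicate 2 and highest without KO replicate 3. For the NADPH list it ran from -0.26 to 0.14, with the same libraries at the ends. The heme and iron list ran from -0.066 without KO replicate 1 to 0.16 without KO replicate 3, which left 2 of 9 lower. The AHR list ran from -0.047 without KO replicate 1 to 0.20 without WT replicate 1, which left 2 of 8 lower. Over the 7 lists, 100 genes were tested and 0 had an adjusted p under 0.05 by limma, 7 an unadjusted p under 0.05 (7%, against 4.34% of all genes tested) and 4 no overlap (4%, against 8.28%). An r above 0.8 with the mean of the targets was not limited to the battery. It was found for 3 of 9 heme and iron genes (33.3%) and 2 of 8 AHR genes (25%). The remaining lists had 1 or 2 genes each (11.1% to 15.4%), against 2.54% of the genes compared. With single libraries left out, the share ran from 5.88% to 11.8% for partners, 15.4% to 30.8% for glutathione and 0% to 23.1% for thioredoxin. The ranges were 11.1% to 22.2% for NADPH, 11.1% to 33.3% for heme and iron and 12.5% to 25% for AHR. Without KO replicate 3 the partners and thioredoxin lists lay below the 6.84% of the genes compared.

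**Figure D5:**
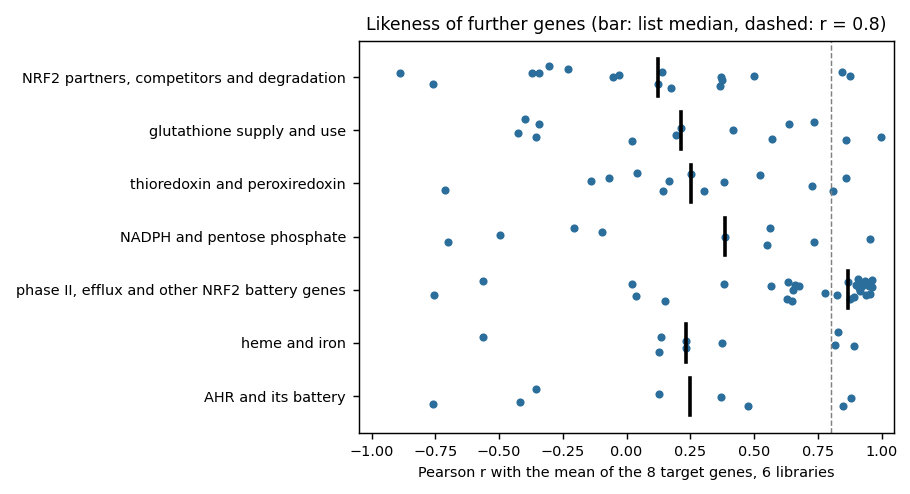
Pearson r over 6 libraries between each gene of 7 lists and the mean centred log2 value of the 8 NRF2 targets, one point per gene, with the list median as a bar and r = 0.8 dashed. The median is 0.87 for the battery genes and between 0.12 and 0.39 for the other 6 lists.

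Of the 22663 genes compared, 41 had an r above 0.95, 575 above 0.8 and 495 below -0.8 with that mean. Gpx1, the main cytosolic glutathione peroxidase, was the closest, with an r of 0.998. It was 13.37, 12.85 and 13.29 in WT against 13.07, 13.31 and 12.85 in KO. The next closest were 4933421A08Rik, Cfap53, Cyp2c39 and Abcc9, with r from 0.989 to 0.991, and of these only Abcc9 was above a log2 value of 5 in any tumor.

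Genes read by other regulators also moved between these tumors, and were looked at after the values were seen. Cyp2b10, a target of the xenobiotic receptor CAR, was 5.84, 4.06 and 4.64 in WT against 3.07, 6.60 and 3.23 in KO, with an r of 0.77 with the targets. Cyp2c55, another xenobiotic-induced cytochrome P450, was 6.93, 4.49 and 6.05 in WT against 4.80, 7.45 and 5.42 in KO, with an r of 0.82. Cyp1a2, an AHR target, ran from 9.48 in WT replicate 2 to 12.26 in WT replicate 1, with an r of 0.88. Glul, a marker of pericentral hepatocytes and of beta-catenin activity, was 11.99, 11.13 and 11.69 in WT against 10.17, 11.15 and 11.17 in KO, with an r of 0.45. Axin2, a feedback gene of beta-catenin signaling, had an r of 0.57. Summed hepatocyte markers ran from 20.6 to 21.3 in WT and from 20.9 to 21.4 in KO as log2 values, with 2 of 6 genes higher in KO and 1 without overlap. Summed stellate cell and fibroblast markers ran from 13.1 to 14.6 in WT and from 12.2 to 14.2 in KO (0 of 7 higher), and bile duct markers from 7.55 to 9.02 and from 7.39 to 7.81 (1 of 5 higher, 2 without overlap). Endothelial markers ran from 12.3 to 12.6 and from 12.5 to 12.8 (4 of 5 higher, 2 without overlap), lymphocyte markers from 6.60 to 6.95 and from 6.49 to 7.54 (5 of 7 higher, 2 without overlap), and neutrophil markers from 7.90 to 9.61 and from 7.40 to 8.02 (0 of 4 higher). The 2 lymphocyte markers without overlap, both weakly expressed, went opposite ways, with Cd3e lower and Cd3g higher in KO. Among all genes tested, 8.28% were without overlap and 52.3% were lower in KO. Over the 6 libraries, the r of the marker sums with the mean of the targets was -0.70 for hepatocyte, -0.59 for lymphocyte, 0.57 for bile duct, 0.50 for stellate cell, 0.44 for macrophage, -0.066 for neutrophil and -0.051 for endothelial markers. The sums add values off the log scale, so the strongest genes carry them. Alb was 20.6 in WT replicate 1 against a hepatocyte sum of 20.9, so the r of -0.70 describes mainly Alb. All these r values describe 6 points, and the part of any of these regulators or cell types in the shared pattern was not tested.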

How the data were processed

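RNA was extracted from 3 WT and 3 Top1mt-KO liver tumors, and genotype and replicate were taken from the sample labels. The deposited table gives 1 log2 value for each gene symbol and library. To make it, the authors trimmed reads (Trimmomatic 0.36), kept uniquely mapped reads, counted them with featureCounts and used DESeq2. The paper names BWA and a mouse genome Mm 8, while the submitters' processing notes list STAR 2.5.1 and GRCm38, and the log2 transform is not given in the sources used here. Counts could not be recovered, so depth is unknown, no count model was run, and p-values measure only the spread between these tumors. The table has 3 columns without a name, left unused here, and 0 other per-sample columns.

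The test between genotypes was limma's (version 3.58.1, R 4.3.3, lmFit, eBayes with a trend, Benjamini-Hochberg over all genes tested, threshold 0.05) on genes with a mean above the lowest 25%. The procedure was tested on simulated data. Correlations used exact permutation in Python 3.11.15. Gene positions and exon lengths came from GENCODE M21 on GRCm38, and promoter sequences from RefSeq on GRCm38.p6, whose letters were not matched to the build of the reads. Genes named are the 10 members, Top1mt, the 2 highest and 2 lowest differences of each list (for the NRF2 partners the highest and lowest and any gene without overlap), and the 5 genes most like the targets. Other genes were named after their values were seen, as were those with an unadjusted p under 0.05. The genes and lists were chosen with earlier results of these data known. Dpp3 was not analysed here.

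Alternatives were limma without trend, quantile normalization, no filter, only genes above the median level, a replicate block, and each library left out in turn. Counts of battery genes without each library, and with genotype means removed, were added after seeing the data. Deviations from the genotype means correlated at -0.123, -0.0759 and 0.0520 between libraries of the same number, so the numbers were not treated as pairs.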

Additional observations from a re-analysis of the deposited data

How the results depend on the processing

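None of the 10 genes passed an adjusted p of 0.05 by limma under any of the 11 alternatives (adjusted p no lower than 0.691). Across all genes, no filter on low values gave 4 genes past it, and leaving out a library gave 0 to 1. At an unadjusted p under 0.05 the count of the 10 genes was 1 with the replicate block and 0 to 1 with a library left out, G6pdx each time. Of all 22677 genes tested, 912 were under it with the block and 860 to 1356 with a library left out. Nothing in the labels states that the replicate numbers pair the samples. The count of the 10 genes without overlap ran from 0 to 2 with a library left out, reached by Hmox1 and G6pdx without KO replicate 1. Fewer libraries separate genotypes more readily, and the share over all genes was not computed for those fits. The median log2 difference of the 10 genes ran from -0.27 to 0.080. Single libraries turned the sign of 7 genes, with log2 differences from -0.0042 to 0.15 for Keap1, -1.57 to 0.17 for Nqo1, -0.057 to 0.76 for Gclc, -0.18 to 0.075 for Gclm, -0.44 to 0.093 for Txnrd1, -0.90 to 0.20 for Srxn1 and -0.28 to 0.080 for Gsr. The others, Nfe2l2, Hmox1 and G6pdx, kept theirs. The alternatives that kept all libraries turned no sign. The causes were not tested.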
